A study of Mus musculus with 4 samples.

Results

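The axon guidance ligands and receptors are the cell surface and secreted proteins that steer growing axons and migrating neurons. They were taken by symbol as the Eph receptors and ephrins, semaphorins of classes 3 to 7, plexins, neuropilins, Slits, Robos, netrins and the netrin receptors Dcc, Neo1 and Unc5. These symbols matched 68 of the 48795 genes in the table, and all 68 were among the 22158 genes tested. RNA came from the telencephalon, the embryonic forebrain, of C57BL/6 mice at embryonic day 14. The 2 Ctcf-null libraries were from embryos with a floxed Ctcf gene and NestinCre, a Cre recombinase driven by Nestin sequences that acts in neural progenitors and so is passed on to their descendants. The 2 control libraries carried the floxed Ctcf gene without the Cre. Blood vessels, microglia, meninges and other cells outside the neural lineage are part of the dissected tissue, and whether they lost Ctcf is not given in the labels. The labels number the libraries as 2 pairs and do not say whether each came from a separate embryo, so every p-value here speaks of the variation among these libraries alone, part or all of which may be technical.

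The guidance families work as matched ligands and receptors. Ephrins sit on the cell surface, the A class by a lipid anchor and the B class by a transmembrane domain, and signal through Eph receptor tyrosine kinases on the next cell. Semaphorins act through plexins, and most secreted class 3 semaphorins need a neuropilin as the binding subunit. Slits are secreted and mostly repel axons through Robo receptors, while netrins attract through Dcc or repel through Unc5 receptors. In the forebrain these systems lay out the corpus callosum and the thalamocortical and corticofugal tracts, and they guide interneurons and newborn cortical neurons. CTCF, the protein removed here, binds DNA and anchors chromatin loops with cohesin. The comparison asked which of these genes had a different transcript level when Ctcf was removed.

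Reads per library were 43812558 and 25519331 in the Ctcf-null libraries and 41294659 and 27619441 in the controls. Ctcf itself was at 38.89 and 61.96 normalized read counts in the Ctcf-null libraries, against 436.72 and 1133.21 in the controls, a log2 fold change of -3.81 (SE 0.16, limma adjusted p = 3.3e-12). Libraries of the same number were much more alike than libraries of the same genotype, so Ctcf-null and control were compared within pairs, with the pair as a block. In that fit 813 genes were higher and 2228 lower in Ctcf-null telencephalon at an adjusted p under 0.05. Rescaling the values with TMM factors gave 979 higher and 1381 lower, and upper-quartile factors gave 1242 higher and 910 lower. The median log2 fold change of all genes was -0.07 with the deposited scaling and 0.11 higher with upper-quartile factors, so small shifts of a family as a whole cannot be read as rises or falls. Without the block, limma called none of the 22158 genes (170 at an unadjusted p under 0.05), and edgeR also called none (174 at an unadjusted p under 0.05).

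For sequence context, RefSeq start regions (build GRCm38.p6, 250 bases before to 50 after the annotated start) are printed for the largest fall (Nrp1), for a receptor and its ligand that were both higher (Plxnc1 and Sema7a), and for the Slit that was higher (Slit2). Capitals mark short forms of the core of the CTCF motif, searched on both strands. The first form was AGGGGGC. The second form was AGGTGGC. The others searched were AGAGGGC and also AGATGGC.
Nrp1, chr8:128358823-128359122, plus strand: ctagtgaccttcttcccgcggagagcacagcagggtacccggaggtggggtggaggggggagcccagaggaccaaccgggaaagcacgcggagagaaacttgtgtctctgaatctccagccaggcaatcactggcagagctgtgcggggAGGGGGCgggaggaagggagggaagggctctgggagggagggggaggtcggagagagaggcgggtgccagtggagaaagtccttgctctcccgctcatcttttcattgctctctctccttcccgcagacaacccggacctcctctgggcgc
Slit2, chr5:47982905-47983204, plus strand: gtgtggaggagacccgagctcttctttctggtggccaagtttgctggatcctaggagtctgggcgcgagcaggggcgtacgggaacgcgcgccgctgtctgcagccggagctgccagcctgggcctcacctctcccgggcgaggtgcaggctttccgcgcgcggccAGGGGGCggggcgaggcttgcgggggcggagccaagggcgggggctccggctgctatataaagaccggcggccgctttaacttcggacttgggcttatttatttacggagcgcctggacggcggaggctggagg
Plxnc1, chr10:94944796-94945095, minus strand: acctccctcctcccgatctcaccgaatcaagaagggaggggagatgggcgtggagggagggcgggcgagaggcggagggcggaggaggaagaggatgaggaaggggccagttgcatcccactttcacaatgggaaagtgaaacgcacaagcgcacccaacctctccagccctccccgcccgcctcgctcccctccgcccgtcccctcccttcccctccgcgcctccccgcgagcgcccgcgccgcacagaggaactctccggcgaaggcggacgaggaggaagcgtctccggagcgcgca
Sema7a, chr9:57939862-57940161, plus strand: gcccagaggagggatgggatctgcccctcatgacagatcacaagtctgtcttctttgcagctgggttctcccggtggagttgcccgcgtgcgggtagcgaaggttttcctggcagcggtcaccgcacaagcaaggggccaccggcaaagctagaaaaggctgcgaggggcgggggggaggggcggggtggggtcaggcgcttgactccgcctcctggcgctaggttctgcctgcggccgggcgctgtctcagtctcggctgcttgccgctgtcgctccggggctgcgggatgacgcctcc

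The Nrp1 and Slit2 regions each held 1 match, and the Plxnc1 and Sema7a regions held none. The RefSeq start of Nrp1 lies 469 bases downstream of its start in GENCODE M21, the annotation used for gene positions. The printed Nrp1 region and its match therefore lie inside the gene as GENCODE draws it. RefSeq start regions were found for 58 of the 68 guidance genes, 74 regions in all. At least 1 of the forms was in 32.4% of those 74 regions and in 27.6% of all 32851 regions of the same length. The median GC content was 64.3% in the guidance gene regions and 52.7% in all regions, and the forms are rich in G and C. These are matches of letters, and binding of CTCF was not measured here.

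In Ctcf-null telencephalon, 6 of the 68 guidance genes rose and 7 fell, 19.1% in all, where 13.7% of all genes tested passed (3.67% higher and 10.1% lower). Those that rose were the semaphorin Sema7a and its receptor Plxnc1, the ligand Slit2 and the receptor Robo1, and the netrin receptors Unc5b and Unc5d. Those that fell were the semaphorin co-receptor Nrp1, the ephrin Efnb1, the Eph receptors Ephb1, Epha5 and Epha4, the receptor Robo2 and the semaphorin Sema5a. Nrp1 had the largest change, 2.11-fold lower. Among genes with at least 50 normalized counts in at least 2 libraries, 25.0% of 56 guidance genes and 19.0% of 15121 genes passed in a fit to those genes alone. Of the 56 guidance genes 6 were higher and 8 lower, where 4.71% of the 15121 genes were higher and 14.3% lower. An absolute log2 fold change of at least 0.5 together with the adjusted p was met by 7 guidance genes and by 6.20% of all genes. By direction, 8.82% of the guidance genes were higher and 10.3% lower, the lower share being near its background of 10.1% and the higher share above its background of 3.67%. Whether these shares differ from the background was not tested. In the larger families, the Eph receptors, ephrins, semaphorins and plexins, most genes did not pass. The median log2 fold change was -0.08 over the guidance genes and -0.07 over all genes tested.

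How many guidance genes passed depended on the scaling and the method. After TMM rescaling 6 rose and 6 fell (17.6% in all), where 10.7% of all genes passed (4.42% higher, 6.23% lower). After upper-quartile rescaling 10 rose and 6 fell (23.5% in all), where 9.71% passed (5.61% higher, 4.11% lower). With edgeR and the block 6 rose and 6 fell (17.6% in all), where 11.9% passed (4.80% higher, 7.13% lower). The stricter DESeq2 with the block kept 7 of the 13, namely Nrp1, Efnb1, Ephb1, Epha5, Plxnc1, Unc5d and Slit2. These were 3 higher and 4 lower (10.3% in all), where 3.75% of all genes passed (1.30% higher, 2.45% lower).

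**Figure D1:**
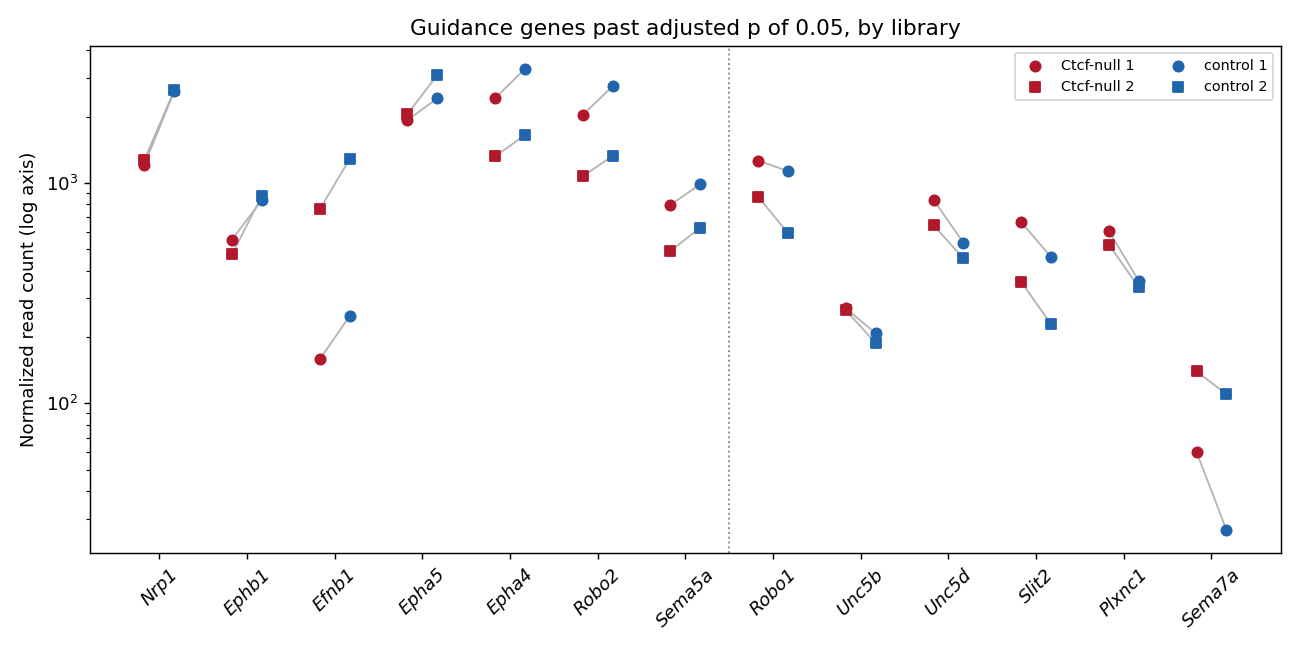
Normalized read counts (log axis) of the 13 guidance genes past an adjusted p of 0.05, ordered by log2 fold change, with those lower in Ctcf-null left of the dotted line. Circles are libraries of pair 1 and squares of pair 2, Ctcf-null in red on the left and control in blue on the right of each gene, and lines join the members of a pair. Both lines of each gene slope the same way, and for Efnb1 the pairs differ far more from each other than the genotypes do.

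All 13 genes that passed had the same sign in both pairs. The fit favours such genes, so this follows in part from the selection. Of all 68, 42 had the same sign in both pairs, and among all genes tested the share was 67.4%. In 10 guidance genes the libraries of the genotypes did not overlap, 4 with both Ctcf-null libraries above both controls and 6 with both below. Across all genes tested the groups did not overlap for 14.1%, 6.45% above and 7.64% below. Of these 10, Epha5, Ephb1, Unc5b, Unc5d, Nrp1 and Plxnc1 also passed, whereas Robo3, Sema3d, Sema4b and Sema4g did not.

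**Figure D2:**
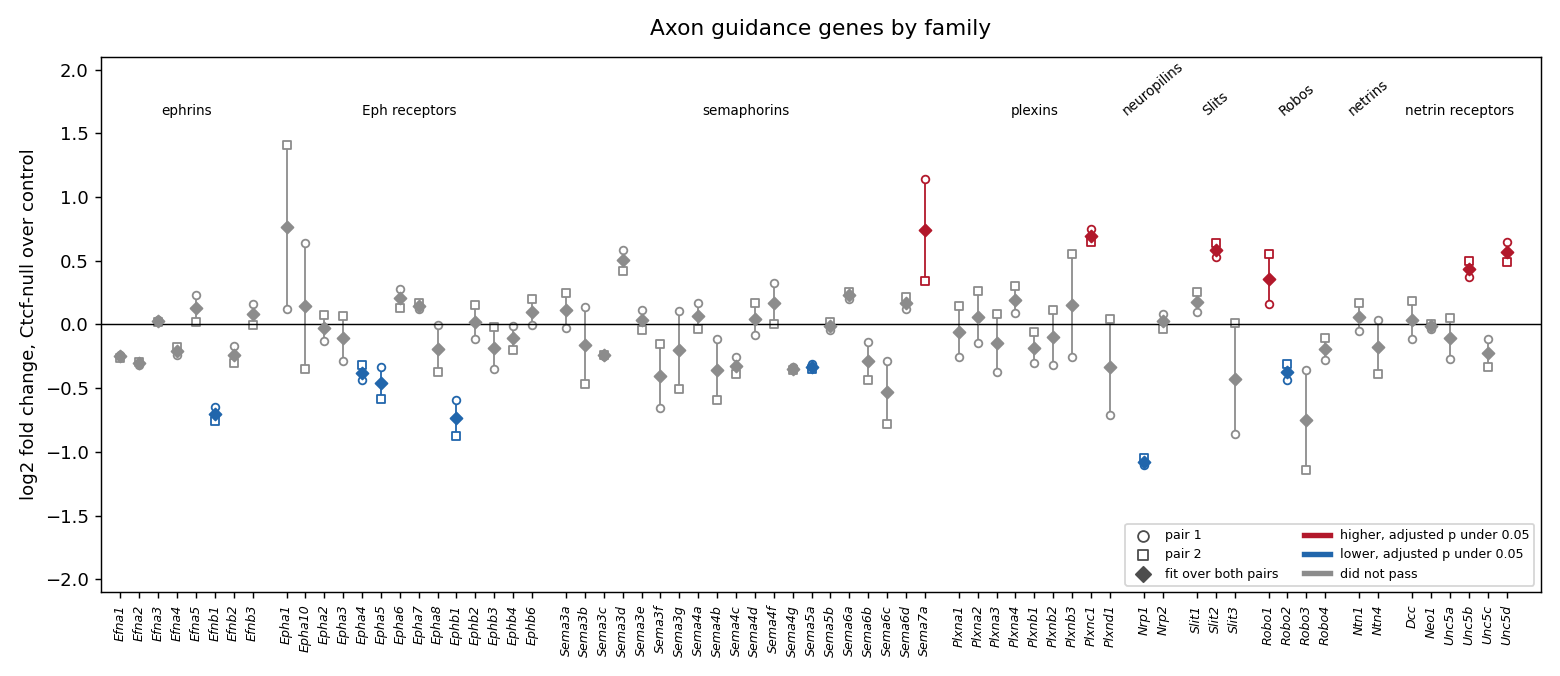
Log2 fold change, Ctcf-null over control, of all 68 guidance genes by family. Open circles are pair 1, open squares pair 2 and filled diamonds the fit over both pairs, in red where higher and in blue where lower at an adjusted p under 0.05. Each larger family holds genes on both sides of 0, and long vertical lines, as at Epha1 and Sema7a, mark genes whose pairs differ.

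Among the secreted and anchored semaphorins and their receptors, the clearest difference was in Nrp1. Neuropilin-1 is the binding subunit for Sema3a and also a co-receptor for vascular endothelial growth factor. Nrp1 (ENSMUSG00000025810.9, GRCm38 chromosome 8, 128358604 to 128503363, plus strand, GENCODE M21) was at 1213.40 and 1275.63 normalized counts in the Ctcf-null libraries, against 2607.84 and 2639.16 in the controls. Both Ctcf-null libraries lay far below both controls, and the pairs gave nearly the same log2 fold change, -1.10 and -1.05. The fit gave -1.08 (SE 0.07, limma adjusted p = 4.1e-09), the smallest adjusted p of any guidance gene. Its relative Nrp2, which binds Sema3f, was at 574.88 and 1046.02 in Ctcf-null, against 542.56 and 1071.92 in controls, and did not pass (log2 fold change 0.02, adjusted p = 0.90). Nrp1 was also the only guidance gene with an unadjusted p under 0.05 when the block was left out (limma adjusted p = 1.00).

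None of the measured class 3 semaphorins, the secreted ligands of the neuropilins, passed. Sema3a, the main Nrp1 ligand, was at 1173.80 and 657.25 in Ctcf-null, against 1198.97 and 552.85 in controls (log2 fold change 0.11, adjusted p = 0.50). Sema3c was at 365.57 and 268.49, against 433.16 and 316.45 in controls (log2 fold change -0.24, adjusted p = 0.18). Sema3d, at 57.98 and 38.88 in Ctcf-null against 38.25 and 28.77 in controls, had a log2 fold change of 0.50 (SE 0.26, adjusted p = 0.23). The other members of this class, Sema3b, Sema3e, Sema3f and Sema3g, lay between -0.40 (Sema3f) and 0.04 (Sema3e), at 8.89 to 187.62 normalized counts.

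Sema7a and Plxnc1 encode a lipid-anchored semaphorin and the plexin that binds it, and both were higher. Plxnc1 (ENSMUSG00000074785.4, chromosome 10, 94790866 to 94944835, minus strand) was at 605.28 and 526.05 in Ctcf-null, against 360.22 and 336.46 in controls. The groups did not overlap, and the log2 fold change was 0.70 (SE 0.11, limma adjusted p = 1.2e-04), with 0.75 and 0.64 in the pairs. Sema7a (ENSMUSG00000038264.7, chromosome 9, 57940112 to 57962865, plus strand) was at 60.10 and 139.71 in Ctcf-null, against 26.68 and 110.07 in controls. Here the groups overlapped, because pair 2 was higher than pair 1 in both genotypes. The log2 fold change was 0.74 (SE 0.23, limma adjusted p = 0.034), and it was 1.14 in pair 1 and 0.34 in pair 2, so its size depended on the pair. DESeq2 with the block did not call Sema7a (adjusted p = 0.40) and called Plxnc1 (0.0022). Exons of Plxnc1 overlap those of Gm48718 on the same strand, and reads of the 2 genes may not have been told apart.

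The remaining plexins did not pass. These are the class A receptors Plxna1, Plxna2, Plxna3 and Plxna4, which transmit class 3 and class 6 semaphorin signals, and 4 others. The others are the class B receptors Plxnb1, Plxnb2 and Plxnb3, and Plxnd1, which binds Sema3e. Across all the plexins that did not pass, log2 fold changes ran from -0.34 (Plxnd1) to 0.19 (Plxna4). Plxna2, the plexin with the highest count, was at 4591.24 and 3090.67 in Ctcf-null, against 5082.27 and 2574.12 in controls, lower in pair 1 and higher in pair 2. Of the 9 plexins only 3 had the same sign in both pairs.

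Sema5a, a transmembrane semaphorin that can act as an attractive or a repulsive cue, was at 796.91 and 492.03 in Ctcf-null, against 988.17 and 627.89 in controls. Its log2 fold change was -0.33 (SE 0.09, limma adjusted p = 0.020), with -0.31 and -0.35 in the pairs. The call depended on scaling, since the adjusted p was 0.063 after TMM rescaling, 0.15 after upper-quartile rescaling and 0.063 in edgeR with the block. Its relative Sema5b was at -0.01 and did not pass. Among the class 4 semaphorins, which act through class B plexins, Sema4g was at 267.99 and 255.13 in Ctcf-null, against 337.99 and 327.71 in controls (log2 fold change -0.35, adjusted p = 0.060). Sema4b had -0.36 (adjusted p = 0.076), and Sema4a, Sema4c, Sema4d and Sema4f lay between -0.32 and 0.16. Of the class 6 semaphorins, ligands of class A plexins, Sema6c was at 74.95 and 123.92 in Ctcf-null, against 91.61 and 213.88 in controls (log2 fold change -0.53, SE 0.18, adjusted p = 0.052). Sema6a, Sema6b and Sema6d were at 0.23, -0.29 and 0.17, and none passed.

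In the ephrin and Eph system, 1 of 8 ephrins and 3 of 14 Eph receptors fell and none rose, where 10.1% of all genes tested fell and 3.67% rose. Efnb1, a transmembrane ephrin encoded on the X chromosome (ENSMUSG00000031217.8, 99136130 to 99148991, plus strand), was at 158.39 and 760.52 in Ctcf-null, against 249.04 and 1285.81 in controls. The pairs were so far apart that the groups overlapped, but each Ctcf-null library was lower than its own control, by -0.65 and -0.76 on the log2 scale. The fit gave -0.70 (SE 0.11, limma adjusted p = 1.1e-04). Without the block its SE was 1.20. The other B ephrins were Efnb2, at 1075.51 and 1428.71 in Ctcf-null against 1209.64 and 1767.36 in controls (log2 fold change -0.24, adjusted p = 0.056), and Efnb3, at 0.08. The A ephrins Efna1, Efna2, Efna3, Efna4 and Efna5 lay between -0.31 (Efna2) and 0.13 (Efna5), and none passed.

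Ephb1, a receptor for B ephrins that helps sort crossing from non-crossing axons in the visual system, fell most among the Eph receptors. Ephb1 (ENSMUSG00000032537.14, chromosome 9, 101922128 to 102354693, minus strand) was at 554.37 and 476.24 in Ctcf-null, against 837.85 and 874.30 in controls, with no overlap. Its log2 fold change was -0.74 (SE 0.10, limma adjusted p = 3.1e-05), with -0.60 and -0.88 in the pairs. Exons of Ephb1 overlap those of the antisense gene Gm26846, whose reads cannot be told apart without strand. Ephb2, Ephb3, Ephb4 and Ephb6, a member without kinase activity, lay between -0.18 and 0.10 and did not pass.

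Epha5 and Epha4, receptors that take part in topographic mapping of axons, fell as well. Epha5 was at 1928.99 and 2056.80 in Ctcf-null, against 2426.40 and 3094.44 in controls, with no overlap (log2 fold change -0.46, SE 0.08, adjusted p = 3.6e-04). Epha4, which binds both A and B ephrins, was at 2431.74 and 1323.01 in Ctcf-null, against 3297.16 and 1652.29 in controls (log2 fold change -0.38, SE 0.07, adjusted p = 0.0016). Its groups overlapped, and DESeq2 with the block gave it an adjusted p of 0.060, so it was not called there. Epha3, the Eph receptor with the highest count, was at 4911.56 and 2271.84 in Ctcf-null, against 6001.07 and 2167.61 in controls, and did not pass (adjusted p = 0.40). Epha7 was at 3285.22 and 1952.32, against 3022.32 and 1742.34 in controls (log2 fold change 0.14). It did not pass with the deposited scaling (adjusted p = 0.21) but did after upper-quartile rescaling (0.045). Epha1, at 23.33 and 18.22 in Ctcf-null against 21.35 and 6.25 in controls, had a log2 fold change of 0.76 with 0.12 in pair 1 and 1.41 in pair 2 (adjusted p = 0.24). Epha2, Epha6, Epha8 and Epha10 were all under 60 normalized counts in every library and did not pass.

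In the Slit and Robo system, Slit2 rose, and the neighbouring receptor genes Robo1 and Robo2 went opposite ways. Slit2, a secreted repellent expressed at the midline (ENSMUSG00000031558.15, chromosome 5, 47983138 to 48307733, plus strand), was at 664.68 and 355.96 in Ctcf-null, against 461.62 and 228.89 in controls. Each Ctcf-null library was above its own control, while the groups overlapped between pairs. The log2 fold change was 0.58 (SE 0.11, limma adjusted p = 0.0011), with 0.52 and 0.63 in the pairs. Slit1 was at 0.18 and Slit3 at -0.43, and neither passed (adjusted p = 0.53 and 0.35).

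Robo1 (chromosome 16, 72308306 to 73046095, plus strand) was at 1266.43 and 867.43 in Ctcf-null, against 1133.15 and 591.62 in controls. Its log2 fold change was 0.36 (SE 0.10, limma adjusted p = 0.018), though it was only 0.16 in pair 1 and 0.55 in pair 2. Robo2, 846 kb away on the same chromosome (73891839 to 74411825, minus strand), was at 2040.00 and 1073.96 in Ctcf-null, against 2753.71 and 1329.59 in controls (log2 fold change -0.37, SE 0.08, adjusted p = 0.0027). Both held their direction and passed under TMM and upper-quartile rescaling and in edgeR with the block, whereas DESeq2 with the block called neither (adjusted p = 0.18 and 0.092). The divergent Robo3, which lets commissural axons cross the midline, was at 23.33 and 25.51 in Ctcf-null, against 30.24 and 57.54 in controls (log2 fold change -0.75, SE 0.30, adjusted p = 0.11). Robo4, a receptor of blood vessels, was at -0.19 (adjusted p = 0.51).

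In the netrin system 2 of the 6 netrin receptors rose, where 3.67% of all genes tested rose and 10.1% fell. Both are among the 4 Unc5 receptors, and the other genes, the 2 netrins included, did not pass. Unc5d, transcribed in the cortical subventricular zone, binds the adhesion protein Flrt2. Unc5d (ENSMUSG00000063626.6, chromosome 8, 28646717 to 29219636, minus strand) was at 840.04 and 642.67 in Ctcf-null, against 536.33 and 456.54 in controls, with no overlap. Its log2 fold change was 0.57 (SE 0.10, limma adjusted p = 4.3e-04), with 0.65 and 0.49 in the pairs. Unc5b, a receptor of neurons and vessels, was at 270.11 and 264.85 in Ctcf-null, against 208.13 and 187.62 in controls, also with no overlap (log2 fold change 0.43, SE 0.13, adjusted p = 0.032). DESeq2 with the block did not call Unc5b (adjusted p = 0.36). Unc5a and Unc5c were at -0.11 and -0.22.

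The attractive receptor Dcc was at 790.55 and 372.97 in Ctcf-null, against 854.75 and 328.96 in controls (log2 fold change 0.03, adjusted p = 0.88). Its paralog Neo1, which also binds repulsive guidance molecules, was at 1714.73 and 1151.71 in Ctcf-null, against 1755.76 and 1146.97 in controls (log2 fold change -0.01, SE 0.08, adjusted p = 0.94). The ligands Ntn1 and Ntn4 were at 0.06 and -0.18 and did not pass. Ntn3 was searched for by symbol and had no match, so it could not be analysed.

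**Figure D3:**
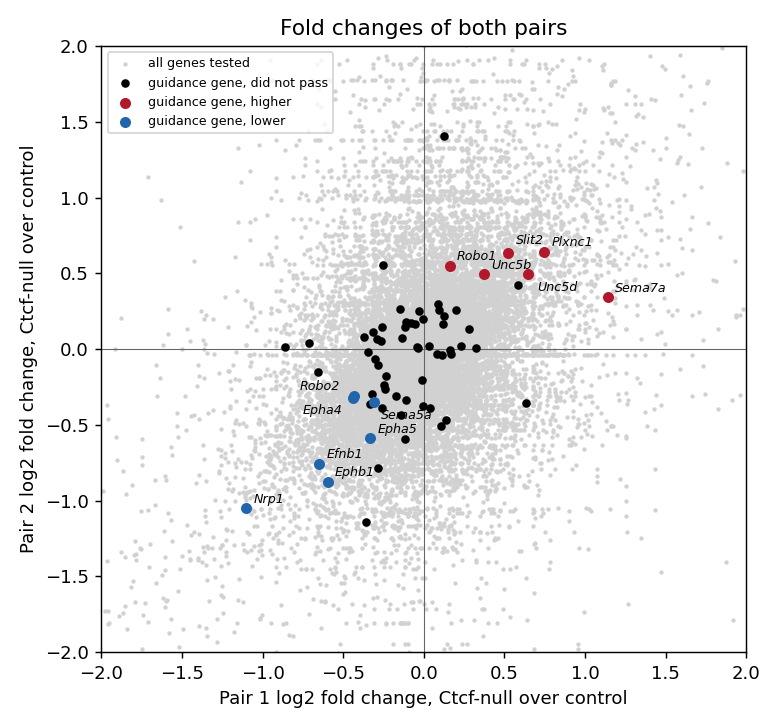
Log2 fold change, Ctcf-null over control, in pair 1 (x axis) and pair 2 (y axis). Grey points are all genes tested, black points guidance genes that did not pass, and red and blue points those higher and lower in Ctcf-null at an adjusted p under 0.05. The axes end at 2 in each direction, so genes with larger changes are not drawn; Nrp1 lies at the lower left with both pairs past -1.

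Levels of the guidance genes differed widely, compared here per kilobase of merged exon length. Epha3 was highest in controls, at a mean of 413 normalized counts per kilobase in Ctcf-null and 470 in controls, followed by Efnb3 at 418 and 405, and Epha4 at 233 and 307. Nrp1 had 127 in Ctcf-null and 268 in controls, which placed it among the highest in controls. Plxnc1, at 67.8 in Ctcf-null and 41.7 in controls, and Unc5d, at 80.4 and 53.8, were in the middle of the range. The lowest was Plxnb3, at 2.56 in Ctcf-null and 2.37 in controls. These are means of 2 libraries from pairs that differ strongly, so neighbours in this order cannot be separated. The order also depends on the length used. For Nrp1 the merged exons span 9785 bases and the longest transcript 3645, whereas for Efnb3 both are 3183.

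The pairs differed from each other more than the genotypes did, and unevenly across the guidance genes. Efna2 was 16.8 times as high in Ctcf-null 2 as in Ctcf-null 1, and 16.4 times as high in control 2 as in control 1. For Efna3 the ratios were 12.6 and 12.7, whereas for Epha3 they were 0.46 and 0.36. The ratio of pair 2 to pair 1 went with the GC content of the longest annotated transcript, with Pearson's r = 0.62 among the Ctcf-null and 0.58 among the control libraries (Spearman's rank correlation 0.67 and 0.65, 68 genes that share the same libraries, a description). In the 34 genes with lower GC content (39.2% to 55.3%) the median ratio was 0.75 in both Ctcf-null and control libraries, against 2.06 in Ctcf-null and 2.22 in controls for the 34 with higher GC content (56.0% to 63.5%). The fold change between genotypes showed little of this, with Pearson's r = -0.12 and a rank correlation of -0.16 over the same genes. Of the 13 genes that passed, 10 were in the lower-GC set and 3 in the higher-GC set, where 13.7% of all genes tested passed. The median log2 fold change between genotypes was 0.03 in the lower-GC set and -0.14 in the higher-GC set. Whether the sets differ was not tested.

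**Figure D4:**
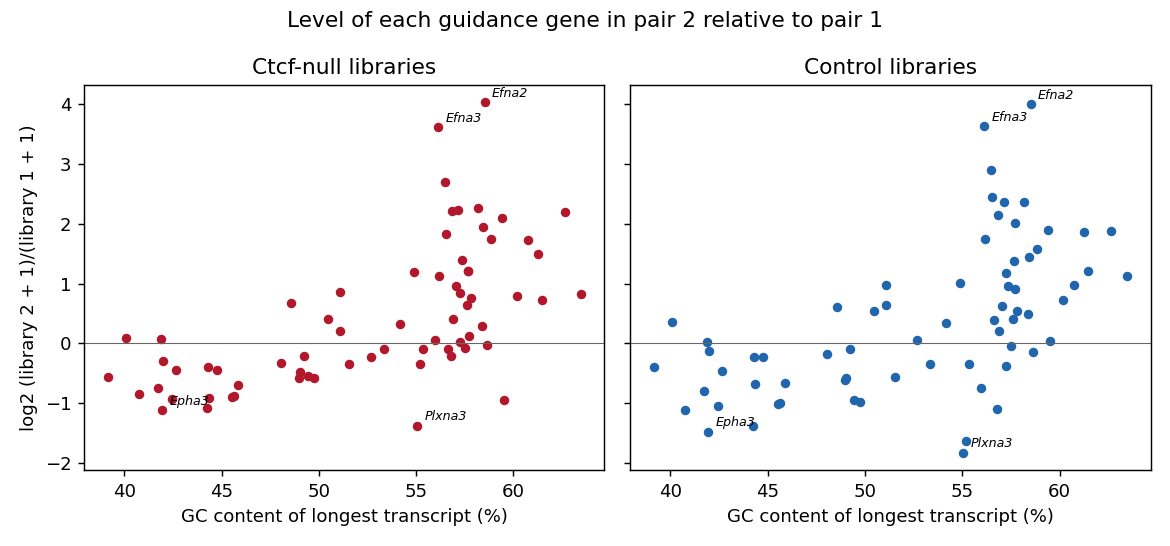
Level of each of the 68 guidance genes in pair 2 relative to pair 1, as log2 of the ratio of normalized counts plus 1 (y axis), against the GC content of its longest transcript (x axis, %), for the Ctcf-null libraries (left) and the control libraries (right). Genes of higher GC content lie mostly above 0 and reach 16.8 times the level, and both panels show a like pattern.

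The tissue also held cells of several kinds in which guidance genes are active, and in bulk RNA fewer cells of a type and less RNA per cell cannot be told apart. Of 15 endothelial markers 4 fell and 0 rose, where 10.1% of all genes tested fell and 3.67% rose, and 13 of the 15 were below 0 (median log2 fold change -0.28), with summed levels of 3298 and 8075 normalized counts in Ctcf-null, against 3921 and 9215 in controls. No endothelial marker was at 0 in any library. Those that fell were Sox17 (-1.23), Ramp2 (-0.40), Esam (-0.35) and Pecam1 (-0.31, adjusted p = 0.050, just under the threshold), whereas Cdh5 at -0.08 and Kdr, the main growth factor receptor of these cells, at 0.05 did not pass. The log2 fold change of Nrp1, -1.08, was larger in size than that of 14 of these 15 markers and smaller than that of Sox17, at -1.23 (SE 0.29). Sox17 had low counts, 11.31 and 37.66 in Ctcf-null against 22.24 and 111.32 in controls. The vessel-enriched guidance genes Robo4, Plxnd1 and Ephb4 were at -0.19, -0.34 and -0.11 and did not pass. Unc5b, a receptor of neurons and vessels, went the other way and passed (0.43, limma adjusted p = 0.032). The part of vessel content in the Nrp1 result was not tested.

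Neuronal and progenitor markers moved as well, and the counts of each list stand against 3.67% higher and 10.1% lower over all genes tested. Of 17 markers of ventral telencephalon and interneurons 9 fell and 0 rose (median -0.55), with sums of 6018 and 14716 in Ctcf-null, against 9534 and 29208 in controls. Of 9 intermediate progenitor markers 7 fell and 0 rose (median -0.68, sums 7313 and 18515 in Ctcf-null, against 9650 and 27072 in controls), and of 13 excitatory cortical neuron markers 7 fell and 0 rose (median -0.35, sums 43988 and 44170 in Ctcf-null, against 55989 and 56733 in controls). Of 12 apical progenitor markers 4 fell (median -0.15), and of 13 general neuronal markers 2 rose and 3 fell (median -0.05). No marker of these lists was at 0 in any library. In the same libraries the guidance genes Efnb1, Ephb1, Epha4, Epha5 and Robo2 were lower. Others were higher, among them Plxnc1 (0.70), Slit2 (0.58), Unc5d (0.57) and Robo1 (0.36), and 55 of the 68 guidance genes did not pass. The part of cell composition in these results was not tested. Of the 10 mural cell markers 2 fell, of the 10 meningeal markers none passed (5 above 0 and 5 below), and of 12 choroid plexus and 12 microglial markers 3 and 2 rose. Of 8 Cajal-Retzius cell markers 1 rose and 1 fell, of 9 red blood cell genes none passed, and of 6 diencephalic markers 3 could be tested and 1 fell. Of 13 mitochondrially encoded transcripts 7 rose and 3 fell.

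Other guidance molecules outside these families, a list of 43 genes, had 2 that rose and 6 that fell (18.6% of 43, median log2 fold change -0.04), where 13.7% of all genes tested passed, 3.67% higher and 10.1% lower. Flrt3, an adhesion protein that binds Unc5 receptors and Robo1, was at 1904.95 and 1318.15 in Ctcf-null, against 4577.07 and 2769.24 in controls, with no overlap (log2 fold change -1.17, SE 0.07, adjusted p = 1.1e-09). Ackr3, a scavenging receptor for the chemokine Cxcl12, was at 618.01 and 710.71 in Ctcf-null, against 1244.33 and 1781.12 in controls (log2 fold change -1.17, SE 0.09, adjusted p = 2.3e-08). Cxcr4, the signalling receptor for the same chemokine, fell by 0.79 on the log2 scale (SE 0.16, adjusted p = 0.0026). Islr2, a membrane protein of growing forebrain axons, fell by 0.90 (SE 0.08, adjusted p = 1.9e-07). It was at 334.46 and 2059.23 in Ctcf-null against 614.60 and 3901.20 in controls. The 2 that rose were Tenm1, a teneurin adhesion protein, at 0.58 (SE 0.16, adjusted p = 0.018), and Reln, the secreted signal for migrating neurons, at 0.26 (SE 0.08, adjusted p = 0.044).

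Among 52 intracellular effectors of guidance receptors 1 rose and 10 fell (21.2% of 52, median log2 fold change -0.12), where 3.67% of all genes tested were higher and 10.1% lower. The one that rose was Rasa1, a Ras GTPase activating protein that is recruited by Eph receptors, at 2460.73 and 1864.85 in Ctcf-null, against 1010.41 and 970.61 in controls. The groups did not overlap (log2 fold change 1.11, SE 0.09, limma adjusted p = 2.2e-08). Srgap1, an intracellular partner of Robo1, was at 349.31 and 222.32 in Ctcf-null, against 447.39 and 360.23 in controls (log2 fold change -0.52, SE 0.12, adjusted p = 0.0059). The adaptor Nck1 fell by 0.52 (SE 0.09) and Mical1, a semaphorin effector that oxidizes actin, by 0.49 (SE 0.10), with adjusted p of 6.5e-04 and 0.0025. Farp1, a guanine nucleotide exchange factor, was at 407.29 and 346.24 in Ctcf-null, against 665.30 and 367.73 in controls. Its log2 fold change of -0.40 (SE 0.13, adjusted p = 0.043) came from -0.71 in pair 1 and -0.09 in pair 2. The number of effectors that fell depended on scaling, at 5 after TMM rescaling and 3 after upper-quartile rescaling.

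The nearest tested protein-coding genes on each side of the 13 guidance genes that passed made 26 neighbours, with Robo1 and Robo2 as each other's. Leaving out that pair, whose calls the choice of genes had fixed, 24 neighbours remained, of which 5 rose and 0 fell, where 3.67% of all genes tested rose and 10.1% fell. Of these 5, 2 changed in the direction of their guidance gene. Pard3, a polarity protein gene 746 kb from Nrp1, was at 911.46 and 643.89 in Ctcf-null, against 715.11 and 510.32 in controls (log2 fold change 0.34, SE 0.09, limma adjusted p = 0.018), whereas Nrp1 fell. Itgb1 on the other side of Nrp1, 182 kb away, was at -0.06 and did not pass. Cyp11a1, the side chain cleavage enzyme of steroid synthesis, lies 43.5 kb from Sema7a and was at 33.94 and 25.51 in Ctcf-null, against 11.56 and 6.25 in controls (log2 fold change 1.67, SE 0.38, adjusted p = 0.0056). Rbm11, on the far side of Robo2, was at 41.01 and 66.82 in Ctcf-null, against 14.23 and 35.02 in controls (log2 fold change 1.19, SE 0.28, adjusted p = 0.0079). It lies 1180 kb from the end of Robo2 in GENCODE M21. RefSeq also places Robo2 start regions beyond that end, the farthest at 75447244 to 75447543, and Rbm11 is much nearer to that one. Cyp11a1 and Rbm11 both rose from low counts. The others that rose were Pja1, 317 kb from Efnb1, at 0.23 (SE 0.06), and Dusp26, the nearest tested protein-coding gene on its side of Unc5d but 1870 kb away, at 0.33 (SE 0.11). Dusp26 was at 0.52 in pair 1 and 0.15 in pair 2.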

How the data were processed

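RNA-seq of embryonic day 14 mouse telencephalon was used, with 2 Ctcf-null and 2 control libraries. The authors deposited 1 table of normalized read counts per gene and library, a signal not divided by gene length, with log2 fold changes for each pair, per the file headers. STAR 2.5.3, DESeq2 and mm10 are named in the submitters' processing notes. Neither the gene counter nor the annotation release was named there. No strand or molecular identifier is named in the labels. Dividing the deposited values by the value of 1 read in each library gave whole numbers of reads, to within 0.005, for 99.97% or more of values above 0, from which the depth was taken.

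Genes kept by filterByExpr (22158 of 48795) were tested with limma 3.58.1 (R 4.3.3) on log2(value + 1) with an intensity trend and the pair as a block, two-sided, with Benjamini-Hochberg adjustment over all genes tested and a threshold of 0.05. Fold changes are on that log2(value + 1) scale, which understates changes of low genes. With 1 residual degree of freedom per gene, the test leans on the variance that limma pools over genes. The pair entered as a block since the series' own description treats the libraries as pairs. As a check, each library's departure from its genotype mean was correlated between libraries of one number (r = 0.92). Between pairs the typical gene differed by 0.84 on the log2 scale, and between genotypes by 0.20 (medians of absolute differences). No source used here says what a pair has in common. edgeR 4.0.16 and DESeq2 1.42.0 on the recovered reads, with the block, were alternatives, as were other scalings, pseudocounts and filters. edgeR with the block called 2643 genes and DESeq2 832. The limma script was run on data simulated with the pair block built in. That run cannot show whether the block is right for these libraries, since the simulation assumes it.

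Full values were given for guidance genes that passed with the same direction in both pairs and an absolute log2 fold change of at least 0.5, and shorter ones for the rest. From the other guidance lists, up to 4 genes with the largest change in each direction were named. A few genes that did not pass, and all neighbours, were chosen after their values were seen. The guidance genes were matched by symbol, and they and all lists were chosen with earlier results of these data known. Gene positions are from GENCODE M21 (GRCm38, the same assembly as mm10) and start regions from RefSeq.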

Additional observations from a re-analysis of the deposited data

How the results depend on the processing

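The 13 guidance gene calls (6 higher, 7 lower) depend on comparing libraries within pairs. With no replicate block, limma and edgeR each called 0 higher and 0 lower guidance genes, and 0 genes in all, and the lists of other guidance molecules and effectors also had 0 and 0. That edgeR fit without the block was chosen after seeing the data. Leaving out a library under the block leaves only the other pair, with no test, and the median over guidance genes was then 0.005 without a library of pair 1 and -0.112 without one of pair 2. With no replicate block, leaving out each library in turn gave 0 calls among guidance genes, other guidance molecules and effectors, 0 higher genes and 0 to 2 lower genes in all. The median over guidance genes was then 0.105 and -0.271 without Ctcf-null 1 and 2, and -0.293 and 0.074 without control 1 and 2, and the sign turned for Epha4 (0.059 and 0.118), Robo1 (-0.112), Robo2 (0.092 and 0.155), Efnb1 (0.425 and 0.479), Sema5a (0.017) and Sema7a (-0.26). In those fits the lone library is assumed to vary like the others, and the pairs are split unevenly between the genotypes.

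With edgeR on recovered reads and the block, 12 guidance genes passed, all 12 among the 13. DESeq2 with the block called 3 higher and 4 lower. It called 289 genes higher and 543 lower in all, 0 and 3 of the other guidance molecules and 1 effector lower. TMM rescaling gave 1381 genes lower in all, and among effectors 2 higher and 5 lower. Upper-quartile rescaling gave 1242 genes higher and 910 lower in all, 10 guidance genes higher (Epha7, Plxna4, Sema6a and Sema6d added), effectors 3 higher and 3 lower, and a median over guidance genes of 0.029. The median was 0.027 in edgeR with no block. With a pseudocount of 0.5, 1 of the other guidance molecules was higher. Neither pseudocounts nor filters removed any of the 13 calls, and they added Efnb2 (pseudocount of 5, and the filter at 50) or Sema6c (no filter). With 2 libraries per genotype, changes of low genes could not be separated from the spread even where the estimate was large, as for Robo3 (-0.75), Epha1 (0.76) and Sema3d (0.50).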
